A study of Mus musculus with 6 samples.

Results

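Nrf2 and Nrf1, the transcription factors encoded by Nfe2l2 and Nfe2l1, were examined together with the genes that hold them in check or work beside them, in RAW264.7 cells given the sphingosine kinase inhibitor SKI-II. The set holds 10 genes, matched by mouse symbol among the 49315 genes of the count table: Nfe2l2, Nfe2l1, Keap1, Cul3, Rbx1, Bach1, Mafg, Mafk, Btrc and Gsk3b. Each was found once, and all 10 passed the filter on low counts that left 12274 genes for testing. RAW264.7 is an established macrophage-like line of mouse origin, labelled wild type here. The cells received SKI-II at 4 μg/mL or its solvent DMSO, both for 24 h, and each condition gave 3 libraries of poly(A)-selected RNA. Every library came from the same line and no genetic change separated the groups. The study treated and extracted these cells as for its quantitative PCR, whose replicates it describes as biological, while the labels do not say whether the libraries came from separate cultures. The p-values below measure the spread between these libraries.

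Sequencing depth ranged from 12495957 to 17223480 counts in the DMSO libraries and from 14213950 to 20050677 in the SKI-II libraries. All 8 macrophage markers examined, among them Cd68, Csf1r and Spi1, were expressed above the filter in these cells. With SKI-II, Fcgr1 was higher, Lyz2, Itgam and Adgre1 were lower, and the other 4 did not pass the test. None of the markers of other cell types that are reported here passed the filter. Epcam and Ins2 had no count in any library, while Ncam1 had 0, 1 and 0 counts with DMSO and 42, 23 and 10 with SKI-II. The part of these marker differences in the results on Nrf2, Nrf1 and their regulators was not tested.

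Nrf2 is a basic leucine zipper activator of antioxidant and detoxifying genes, which it binds at antioxidant response elements (AREs) as a heterodimer with a small Maf protein such as MafG or MafK. In unstressed cells Keap1 presents Nrf2 to a ubiquitin ligase built on Cul3 and Rbx1, and the protein is degraded; electrophiles and oxidants modify Keap1 and let Nrf2 accumulate. A separate route runs through the kinase GSK3β, which phosphorylates Nrf2 for recognition by βTrCP, the product of Btrc. Bach1 is a heme-binding repressor that competes for the same elements. Nrf1 is made at the endoplasmic reticulum, is removed by ER-associated degradation, and is known for raising proteasome genes when the proteasome is impaired. Much of this control acts on protein stability, and the libraries measured only messenger RNA.

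Transcripts of both activators were abundant and did not pass the test between conditions. Values are given as normalized counts, which are read counts put on a common library size with the TMM factors of edgeR. Fold changes are SKI-II over DMSO, tested with the quasi-likelihood F test of edgeR and adjusted over all tested genes, and a gene was called at an adjusted p below 0.05. Nfe2l2 (chromosome 2, 75675513 to 75704641, minus strand, GRCm38) had 1598, 1447 and 1707 normalized counts with DMSO and 1623, 1529 and 1562 with SKI-II. The SKI-II values lay inside the range of the DMSO values. The fold change was 0.992, with a 95% interval of 0.830 to 1.19 and an adjusted p of 0.945 in edgeR. Because RNA was taken in bulk, a change in the share of expressing cells cannot be told apart from a change in RNA per cell.

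Nfe2l1 (chromosome 11, 96817414 to 96829968, minus strand) was the most abundant of the 10 genes, with 8499, 13019 and 15122 normalized counts after DMSO and 13742, 13034 and 15789 after SKI-II. The groups overlapped, and the lowest value of all 6 belonged to DMSO replicate 1. Its log2 fold change was 0.22 (95% interval -0.24 to 0.67, edgeR adjusted p 0.440). That difference rested on DMSO replicate 1, since without this library the log2 fold change of Nfe2l1 was -0.0029. The interval for Nfe2l1 is wider than that for Nfe2l2, and a rise of up to 1.59-fold lay within it.

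Of the 3 genes of the Keap1 ligase, Cul3 fell and the adaptor Keap1 did not pass the test. Cul3, the cullin scaffold (chromosome 1, 80264923 to 80340480, minus strand), had 1974, 2225 and 2517 normalized counts with DMSO and 1546, 1444 and 1427 with SKI-II. Every SKI-II library was below every DMSO library. The means were 2239 ± 272 and 1472 ± 64.8 (SD, n = 3 each), a log2 fold change of -0.60 (SE 0.12, 95% interval -0.88 to -0.33, edgeR adjusted p 0.00413). It was the only one of the 10 genes called lower, beside 19.7% of all tested genes that were called lower. In 25.5% of tested genes, as in Cul3, all SKI-II libraries lay below all DMSO libraries.

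Rbx1, the RING subunit that recruits the ubiquitin-conjugating enzyme (chromosome 15, 81466296 to 81476369, plus strand), had 1548, 1506 and 2001 normalized counts after DMSO and 1294, 1288 and 1316 after SKI-II. The groups did not overlap here either, which makes 2 of the 10 genes with all SKI-II libraries below, beside 25.5% of all tested genes. Rbx1 narrowly missed the threshold, with a log2 fold change of -0.38 (SE 0.14, 95% interval -0.68 to -0.07, edgeR adjusted p 0.0519). It passed with DESeq2 (adjusted p 0.0465), which called 20.3% of tested genes lower, and under 4 other settings of the edgeR fit, so its call depends on the processing. Without DMSO replicate 3, the highest library, the log2 fold change of Rbx1 was -0.24 (edgeR adjusted p 0.171). The pseudogene Rbx1-ps held 2 to 8 counts per library, against 1156 to 2021 for Rbx1.

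Keap1 (chromosome 9, 21229730 to 21239361, minus strand) had 1201, 955 and 1035 normalized counts with DMSO and 1147, 959 and 991 with SKI-II. The groups overlapped almost completely. The fold change was 0.970, with a 95% interval of 0.787 to 1.20 and an edgeR adjusted p of 0.825. An antisense gene, Gm16754, covers 510 bases or 10.9% of the Keap1 exons. Whether counting used the strand is not given in the sources used here, and reads of the shared stretch cannot be assigned with certainty. Gm16754 itself had 21 to 74 counts per library, against 756 to 1236 for Keap1.

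**Figure D1:**
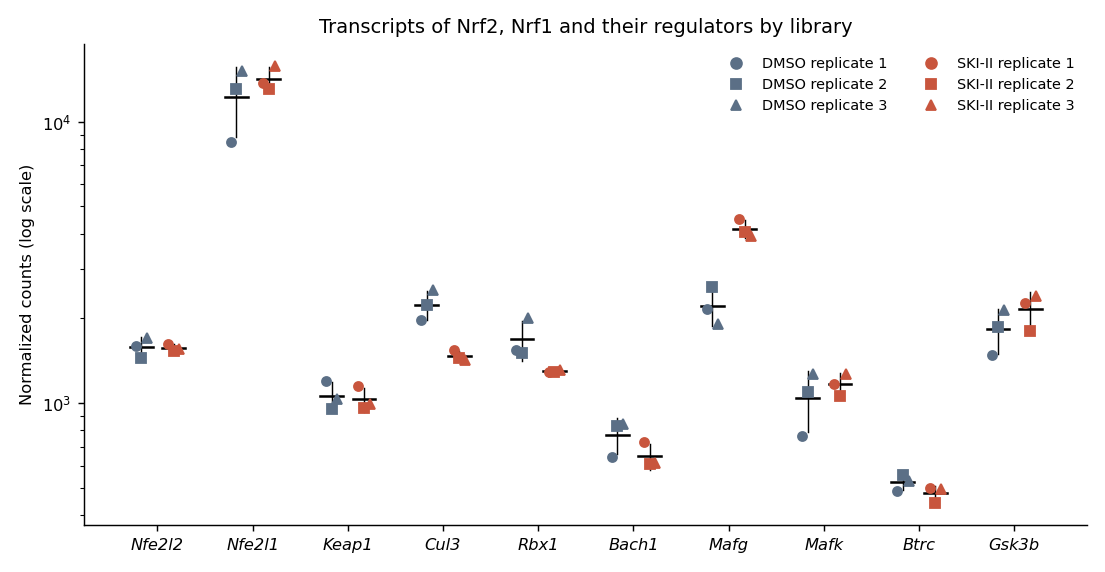
Normalized counts of the 10 genes in each of the 6 libraries, on a log10 axis, with DMSO and SKI-II libraries in different colors, replicates in different symbols, a horizontal bar at each group mean and a vertical line of 1 SD to either side. The points of the groups are fully apart for Mafg (3919 to 4515 after SKI-II, 1907 to 2590 after DMSO), Cul3 and Rbx1, and overlap for the other 7 genes. Of all tested genes, 24.8% had every SKI-II library above every DMSO library and 25.5% had every one below.

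Among the partners of Nrf2, Mafg rose and Mafk did not pass the test. Mafg, a small Maf protein without a transactivation domain (chromosome 11, 120625117 to 120633600, minus strand), had 2161, 2590 and 1907 normalized counts with DMSO and 4515, 4059 and 3919 with SKI-II. The lowest SKI-II value was above the highest DMSO value. The means were 2220 ± 345 and 4164 ± 312 (SD, n = 3 each), a 1.88-fold difference with a 95% interval of 1.51 to 2.32. The log2 fold change was 0.91 (SE 0.14, edgeR adjusted p 0.000842). Mafg was the only one of the 10 genes called higher, where 18.4% of all tested genes were called higher. All SKI-II libraries were above all DMSO libraries in 24.8% of tested genes, and among the 10 genes in Mafg alone. Mafg shares 124 exonic bases, 2.21% of its exons, with Sirt7 on the same strand.

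Mafk (chromosome 5, 139791513 to 139802653, plus strand) had 766, 1097 and 1270 normalized counts after DMSO and 1172, 1060 and 1274 after SKI-II. DMSO replicate 1 was again the lowest library, and the rest of the values overlapped. The log2 fold change of Mafk was 0.16 (95% interval -0.24 to 0.56, edgeR adjusted p 0.513) and became -0.034 without DMSO replicate 1. Bach1, the repressor (chromosome 16, 87698945 to 87733346, plus strand), had 643, 829 and 846 normalized counts with DMSO and 730, 607 and 613 with SKI-II. These groups overlapped, with 2 of the 3 SKI-II values below all DMSO values. The log2 fold change of Bach1 was -0.25 (95% interval -0.58 to 0.08, edgeR adjusted p 0.219).

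Neither gene of the GSK3β and βTrCP route passed the test. Gsk3b, the kinase (chromosome 16, 38089001 to 38246084, plus strand), had 1486, 1860 and 2143 normalized counts after DMSO and 2274, 1803 and 2412 after SKI-II. SKI-II replicates 1 and 3 were above all DMSO libraries and replicate 2 was within them. The log2 fold change was 0.24 (95% interval -0.12 to 0.60, edgeR adjusted p 0.273), and 0.096 without DMSO replicate 1. Btrc, the F-box protein that binds phosphorylated Nrf2 (chromosome 19, 45363734 to 45530013, plus strand), had the lowest counts of the set. It had 488, 557 and 531 normalized counts with DMSO and 499, 442 and 494 with SKI-II, with overlap. The log2 fold change of Btrc was -0.13 (95% interval -0.43 to 0.16, edgeR adjusted p 0.461).

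Across the 10 genes, 1 was called higher, 1 was called lower and 8 were not called, where edgeR called 18.4% of tested genes higher and 19.7% lower. The median log2 fold change was -0.03, next to 0.0038 over all tested genes, with 4 values above 0 and 6 below. A call that also required a log2 fold change above 1 or below -1 held 0 of the 10 genes with edgeR, DESeq2 or limma-voom, Mafg being nearest at 0.91. That stricter rule held 8.28% of tested genes in the upward direction and 7.44% downward. Without the fold threshold, DESeq2 called Mafg higher and Cul3 and Rbx1 lower, where it called 19.6% of tested genes higher and 20.3% lower.

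**Figure D2:**
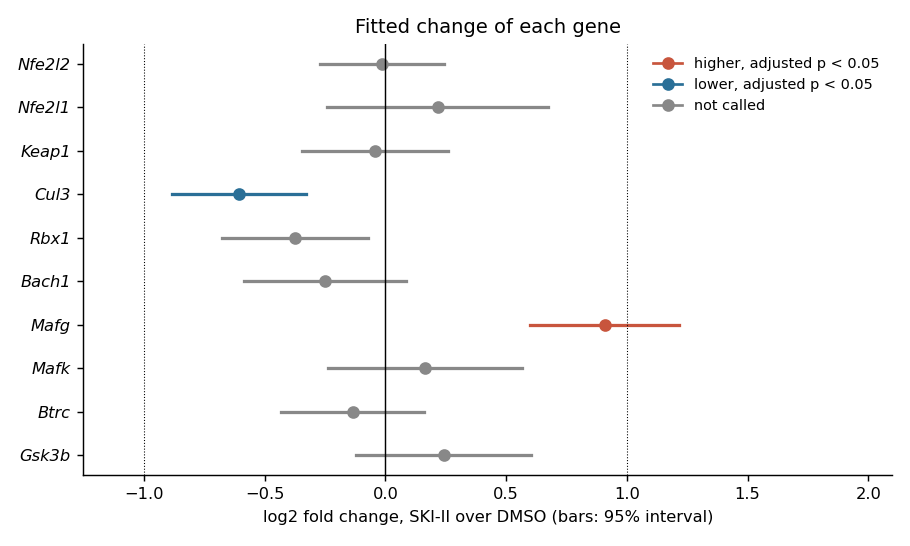
Log2 fold change of each of the 10 genes, SKI-II over DMSO, as a point with its 95% interval from edgeR, with dotted lines at -1 and 1. The interval lies wholly above 0 for Mafg (0.60 to 1.22) and wholly below 0 for Cul3 (-0.88 to -0.33) and Rbx1 (-0.68 to -0.07), while those of the other 7 genes cross 0. Intervals are not adjusted for the number of genes tested, and Rbx1 was not called (edgeR adjusted p 0.0519).

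Promoters are printed for Mafg and Cul3, the called genes, and for Nfe2l2 and Mafk, which were not called but hold an ARE core as Mafg does. The sequences are RefSeq windows on GRCm38.p6 from 250 bases before to 50 after the annotated start, written 5′ to 3′ along the gene. Capitals mark matches to the ARE core TGACNNNGC, searched on both strands. In the Mafg window (chr11:120633498-120633797, minus strand) the match starts at position -222 relative to the start, on the opposite strand. The Nfe2l2 window (chr2:75704614-75704913, minus strand) holds one at -240 on the strand of the gene, and the Mafk window (chr5:139791286-139791585, plus strand) one at -13 on the opposite strand. The Cul3 window (chr1:80340641-80340940, minus strand) holds no match, which says only that these letters are not in this window.
Mafg: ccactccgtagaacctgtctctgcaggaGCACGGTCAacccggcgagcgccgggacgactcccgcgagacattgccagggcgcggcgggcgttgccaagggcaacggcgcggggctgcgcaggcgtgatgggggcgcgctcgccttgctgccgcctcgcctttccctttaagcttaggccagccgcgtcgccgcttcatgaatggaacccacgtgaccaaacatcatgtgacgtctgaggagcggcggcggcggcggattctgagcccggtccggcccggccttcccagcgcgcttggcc
Nfe2l2: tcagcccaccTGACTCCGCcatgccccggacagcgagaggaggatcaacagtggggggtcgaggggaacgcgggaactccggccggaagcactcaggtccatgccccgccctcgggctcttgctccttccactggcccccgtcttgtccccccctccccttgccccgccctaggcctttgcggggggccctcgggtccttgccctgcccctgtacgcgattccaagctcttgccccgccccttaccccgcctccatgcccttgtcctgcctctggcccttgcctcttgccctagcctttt
Mafk: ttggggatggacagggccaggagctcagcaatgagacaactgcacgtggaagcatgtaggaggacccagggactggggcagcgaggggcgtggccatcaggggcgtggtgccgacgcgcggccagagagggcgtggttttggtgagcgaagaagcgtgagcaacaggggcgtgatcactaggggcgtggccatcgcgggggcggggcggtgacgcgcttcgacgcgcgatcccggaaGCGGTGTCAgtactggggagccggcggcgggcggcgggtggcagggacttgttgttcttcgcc
Cul3: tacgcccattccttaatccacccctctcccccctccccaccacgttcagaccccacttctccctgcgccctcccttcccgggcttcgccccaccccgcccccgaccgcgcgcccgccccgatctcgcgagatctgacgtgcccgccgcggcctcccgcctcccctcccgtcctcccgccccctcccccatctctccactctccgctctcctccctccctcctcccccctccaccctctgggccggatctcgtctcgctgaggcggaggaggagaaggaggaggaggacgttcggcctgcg

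RefSeq windows were matched for 9 of the 10 genes, Btrc being the exception, and some genes had several, which gave 13 windows. The core was found in 3 of these windows (23.1%), those of Nfe2l2, Mafg and Mafk. Over all 32851 mouse windows it was found in 12.4%. Of these 3 genes with a match, Mafg rose, whereas Nfe2l2 and Mafk did not pass the test. Keap1, Cul3, Rbx1, Bach1, Gsk3b and the 5 windows of Nfe2l1 held none. A match of this short core is a description of the sequence and does not mark a bound site.

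To compare genes with each other, counts scaled by library size (CPM) were divided by the exon length in kb. In the DMSO libraries Nfe2l1 stood at 140 ± 38.8 CPM per kb (SD, n = 3), at or above 97.6% of tested genes. Cul3 (28.6 ± 3.48 CPM per kb), Nfe2l2 (26.01 ± 2.15), Mafg (24.6 ± 3.83) and Rbx1 (23.1 ± 3.76) followed, and neighbors in that order were not separated by their spread. Mafk (16.7 ± 4.09 CPM per kb), Keap1 (14.1 ± 1.66) and Gsk3b (11.6 ± 2.09) formed a lower group whose neighbors overlapped as well. Bach1 (7.79 ± 1.13 CPM per kb) and Btrc (1.94 ± 0.130) came last. The annotated exons of Btrc add up to 16908 bases, the longest of the set, which lowers its value per kb if the cells use only a part of them.

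After SKI-II the order of levels was different, with Mafg higher and Cul3 lower in it, and with Mafk above Rbx1 and Gsk3b above Keap1 by less than their spread. Mafg moved to the second place at 46.2 ± 3.46 CPM per kb, above Nfe2l2 at 25.8 ± 0.781. Cul3 (18.8 ± 0.829 CPM per kb), Mafk (18.7 ± 1.71) and Rbx1 (17.8 ± 0.201) followed, with Mafk overlapping both and every Cul3 value above every Rbx1 value. Nfe2l1 stayed first at 163 ± 16.4 CPM per kb, and Bach1 (6.56 ± 0.696) and Btrc (1.76 ± 0.117) stayed last.

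Ratios between genes within a library do not depend on how the libraries are scaled, and 5 pairs were compared by a two-sided exact permutation test, in which 3 libraries against 3 cannot give a p below 0.1. The level of Cul3 relative to Keap1, scaffold over adaptor, was 1.58, 2.24 and 2.34 with DMSO and 1.30, 1.45 and 1.39 with SKI-II. All SKI-II ratios were lower, a log2 difference of -0.56 (exact permutation p 0.1, adjusted over 5 pairs 0.25). Mafg relative to Mafk was 1.96, 1.64 and 1.04 after DMSO and 2.68, 2.66 and 2.14 after SKI-II. Here all SKI-II ratios were higher, by 0.73 on the log2 scale (exact permutation p 0.1, adjusted 0.25) and by 0.47 without DMSO replicate 3. For both pairs the p is the smallest this design allows.

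The other 3 pairs overlapped between conditions. Nfe2l2 relative to its adaptor Keap1 was 1.65, 1.87 and 2.04 after DMSO and 1.75, 1.97 and 1.95 after SKI-II, a log2 difference of 0.03 (exact permutation p 0.7, adjusted 0.7), which ranged from -0.051 to 0.10 when each library was left out. Nfe2l2 relative to the repressor Bach1 was 4.04, 2.84 and 3.29 after DMSO and 3.62, 4.10 and 4.14 after SKI-II, a log2 difference of 0.23 (exact permutation p 0.2, adjusted 0.333), or 0.11 without DMSO replicate 2 and 0.37 without DMSO replicate 1. The balance of the activators, Nfe2l2 relative to Nfe2l1, differed by -0.26 on the log2 scale (exact permutation p 0.6, adjusted 0.7), and by -0.01 without DMSO replicate 1.

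**Figure D3:**
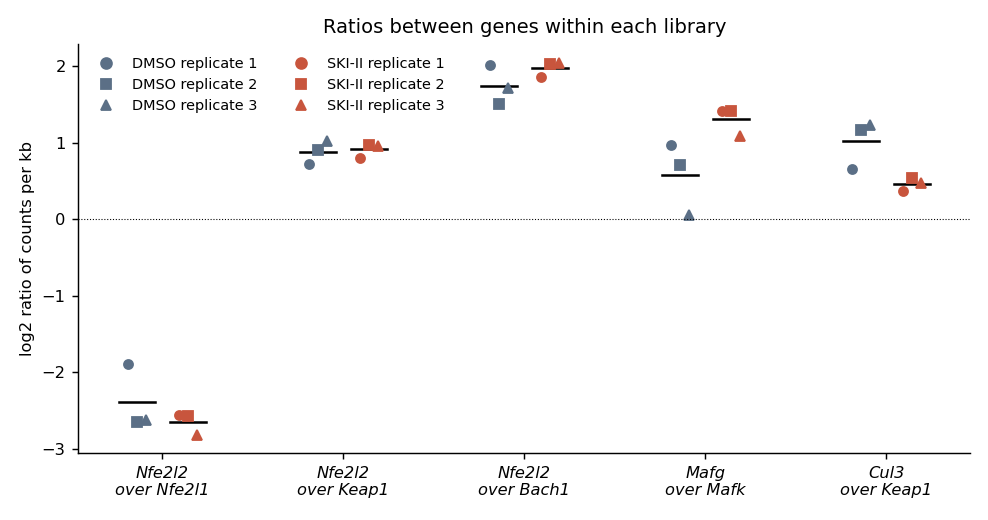
Ratios of levels per kb between 5 pairs of genes in each library, as log2 values, with DMSO and SKI-II libraries in different colors, replicates in different symbols and a bar at each group mean. The SKI-II points lie below the DMSO points for Cul3 over Keap1 (0.38 to 0.54 against 0.66 to 1.23 on the log2 scale), above them for Mafg over Mafk (1.10 to 1.42 against 0.06 to 0.97), and overlap them for the 3 pairs with Nfe2l2.

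Paralogs of the 10 genes set these levels in context. Summed over Mafg, Mafk and Maff, the small Maf transcripts amounted to 44.5 ± 5.15 CPM per kb after DMSO and 69.7 ± 4.36 after SKI-II. Mafg made up 61.8%, 58.9% and 46.1% of that sum with DMSO and 67.1%, 67.2% and 64.7% with SKI-II, without overlap. Of the βTrCP genes, Btrc made up 5.14% ± 0.784 per kb after DMSO and 4.82% ± 0.291 after SKI-II, the remainder being Fbxw11, which did not pass the test. The Btrc share depends on its annotated exon length of 16908 bases. In normalized counts, the DMSO means were 525 for Btrc and 2529 for Fbxw11. Gsk3b made up 18.2%, 20.9% and 21.6% of the GSK3 sum per kb after DMSO and 29.8%, 24.8% and 30.7% after SKI-II. These shares likewise depend on exon length, 9831 bases for Gsk3b. In normalized counts, the means of Gsk3b were 1830 after DMSO and 2163 after SKI-II. Its paralog Gsk3a fell from 2112 ± 171 to 1600 ± 15.7 normalized counts (log2 fold change -0.40, edgeR adjusted p 0.0184).

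Nfe2l1 and Nfe2l2 made up nearly all of the CNC activator transcripts, at 83.6% ± 4.29 and 16.3% ± 4.26 per kb after DMSO and 86.04% ± 1.12 and 13.7% ± 1.17 after SKI-II. Nfe2, the erythroid relative, had 4, 5 and 7 counts with DMSO and 14, 20 and 35 with SKI-II. Bach2 had 3, 1 and 2 counts with DMSO and 24, 49 and 24 with SKI-II. Both are rare transcripts that passed the filter only through the SKI-II libraries, so a gene kept in this way had to differ and no test is given for them. Bach1 still made up 97.1% ± 1.44 of the Bach transcripts per kb after SKI-II, against 99.8% ± 0.0963 after DMSO. Nfe2l3 did not pass the filter.

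Around the 10 genes, 45 other regulators of Nrf2 or Nrf1 were examined, of which 44 were tested, 10 were called higher, 6 lower and 28 neither, where 18.4% of all tested genes were called higher and 19.7% lower. The 10 include Nfe2 and Bach2, and with a filter asking every library for 10 counts or more the genes called higher numbered 8. The median log2 fold change of the 44, with Nfe2 and Bach2 included, was 0.14. Besides Cul3, 4 of 13 genes of the Keap1 and cullin machinery fell and 2 rose, against the shares of all tested genes just given. Those that fell were Palb2, a Keap1-binding protein (log2 fold change -1.27), Cand1, the exchange factor of cullins (-0.73), Nedd8, the modifier that activates them (-0.47), and the Keap1-bound phosphatase Pgam5 (-0.46). Sqstm1, which encodes the autophagy receptor p62 that sequesters Keap1, rose by 3.07 on the log2 scale, and Uba3, a subunit of the Nedd8-activating enzyme, by 0.47. The study also counts Sqstm1 among the downstream targets of Nrf2. The other 7 genes, Cops5 and Usp15 among them, did not pass the test.

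On the side of Nrf1, 11 genes of ER-associated degradation, of the processing or stability of Nrf1, and of ER stress signaling were examined. Of these, 5 rose, where 18.4% of all tested genes were called higher and 19.7% lower, and none of the 11 had a fall with an unadjusted edgeR p under 0.05 or a call by DESeq2 or limma-voom in that direction. Sel1l (log2 fold change 1.49) and Syvn1 (1.37) encode the Hrd1 ligase complex that targets Nrf1, and Ufd1 (1.02) and Nploc4 (0.67) the cofactors of the segregase p97. Fbxw7, a ligase gene, rose by 0.56. For Vcp, which encodes p97 itself, the log2 fold change was 0.20 (edgeR adjusted p 0.307). Ddi2, the protease that cleaves Nrf1, and Ngly1, which deglycosylates it, did not pass the test either. Beside βTrCP and GSK3, Fyn rose (0.60) and Gsk3a fell, with 5 of the 7 genes of that route not called. Of 5 genes of other ligases of Nrf2 or Bach1, 0 were called by edgeR, DESeq2 or limma-voom and 0 had an unadjusted edgeR p under 0.05. Of 5 cofactors Smarca4, the chromatin remodeler Brg1, fell by 0.79 on the log2 scale.

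Beside the uncalled transcripts of Nfe2l2 and Nfe2l1 stand those of their known targets. Of 24 Nrf2 target genes, a list chosen with earlier results of these data known, 22 were tested, 15 rose, 2 fell and 5 did not pass the test. Their median log2 fold change was 1.04. Nqo1 and Aldh3a1 did not pass the filter, Nqo1 having 0, 0 and 0 counts with DMSO and 4, 48 and 9 with SKI-II. Over all tested genes, 18.4% were called higher and 19.7% lower. The 15 and the median include Gsta3, a glutathione transferase with 3, 1 and 10 counts with DMSO and 123, 306 and 233 with SKI-II. Gsta3 passed the filter only through the SKI-II libraries and is given without a test. With a filter asking every library for 10 counts or more, 14 were called higher. Hmox1 (log2 fold change 3.74), the heme oxygenase that Bach1 represses, and Srxn1 (3.18), the sulfiredoxin, rose. Ugdh (-0.77) and Tkt (-0.62) fell. Of 31 constitutive proteasome subunits, known targets of Nrf1, 4 rose, 1 fell and 26 did not pass the test, with a median log2 fold change of 0.09, and as shares of the 31 both counts lie below those of all tested genes. Psmb5 (0.66), Psmc2 (0.62), Psmc5 (0.62) and Psmd4 (0.48) rose, and Psmb2 (-0.35) fell.

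**Figure D4:**
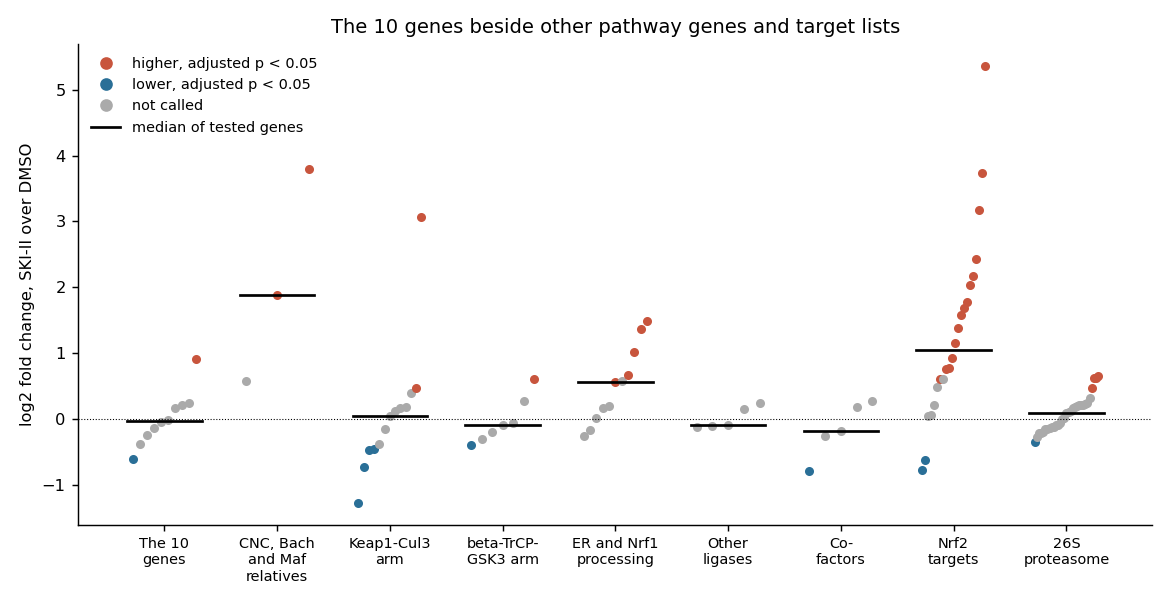
Log2 fold changes, SKI-II over DMSO, of every tested gene in the 10 genes, in the lists of other regulators, among the Nrf2 targets and among the proteasome subunits, one point per gene with called genes in color and a bar at each median. Nfe2, Bach2 and Gsta3 are drawn in color and enter the medians, although they passed the filter only through the SKI-II libraries and are given no test. The medians are -0.03 for the 10 genes, 1.04 for the Nrf2 targets (Gsta3 included) and 0.09 for the proteasome subunits.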

How the data were processed

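Poly(A) RNA of RAW264.7 cells was sequenced in 3 DMSO and 3 SKI-II libraries, grouped by their labels. The authors deposited raw counts of reads per Ensembl gene without normalization, and the submitters' processing notes name Trimmomatic 0.36, STAR 2.5.2b, featureCounts of Subread 1.5.2 and DESeq2. The genome build, annotation and strand setting were not given in the sources used here. Names, exons and positions were taken from GENCODE M21 (GRCm38), which named 48970 of 49315 genes. Skp1 was matched through its RefSeq synonym Skp1a.

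Groups were compared by edgeR 4.0.16 (R 4.3.3) using its quasi-likelihood F test after TMM scaling, filterByExpr (minimum count 10, minimum total 15) and Benjamini-Hochberg adjustment over 12274 genes, which held 99.9% of the counts. Normalized counts were scaled to the mean effective library size of 16042438. Intervals are 95% and rest on the spread between libraries. Replicates of a group all differed by more than sampling noise. The program was tested on simulated data. Alternatives were DESeq2 1.42.0, limma-voom (limma 3.58.1), RLE scaling, library size alone, no filter, a filter asking every library for 10 counts or more, leaving out each library, the replicate number as a block, and a log2 fold change beyond 1.

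The 10 genes and the gene lists were chosen with earlier results of these data known. All 10 are named. In each list of other regulators the called genes with the largest change, up to 4, were named first, and any other gene of these lists could be named. Of the Nrf2 targets and the proteasome subunits, the 3 called genes at the upper end and the 2 at the lower end of the log2 fold changes, of either sign, were named. Figures were drawn with matplotlib 3.10.9.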

Additional observations from a re-analysis of the deposited data

How the results depend on the processing

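Mafg was called higher and Cul3 lower under every alternative except a required log2 fold change beyond 1, which left 0 of the 10 genes called in either direction. Mafg ranged from 0.81 to 1.03 on the log2 scale and Cul3 from -0.70 to -0.51. The count of genes called lower was 2 in place of 1, with Rbx1 added, under DESeq2, library size alone, the filter asking every library for 10 counts or more, and the replicate block, and 1 to 2 when each library was left out in turn. Rbx1 passed without DMSO replicate 1, and its adjusted p ranged from 0.0327 to 0.171 over all alternatives. The replicate block gave 2765 genes higher and 2819 lower. Replicate numbers were not shown to pair the libraries, as the correlations of same-numbered deviations were 0.259, -0.0214 and 0.493 and 3 of 6 libraries correlated best with their own number.

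Of the genes not called, the sign depended on single libraries for Nfe2l2 (-0.081 to 0.042 on the log2 scale when each library was left out, above 0 without DMSO replicate 3 or SKI-II replicate 2), Nfe2l1 (-0.0029 to 0.40), Keap1 (-0.13 to 0.037) and Mafk (-0.034 to 0.33). With the log2 fold change beyond 1, other regulators called higher numbered 6 in place of 10 (both counts include Nfe2 and Bach2, which passed the filter only through the SKI-II libraries) and lower 1 in place of 6, Nrf2 targets called higher 11 in place of 15 (both with Gsta3, kept in the same way) and lower 0 in place of 2, and proteasome subunits called higher 0 in place of 4 and lower 0 in place of 1. The proteasome subunits called lower were also 0 without a filter, and 0 to 1 when each library was left out. The cause of these changes was not tested. With 3 libraries a group, exact tests of the ratios could not give a p below 0.1.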
